A study of Mus musculus with 10 samples.

Results

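The genes described here are those that the authors' deposited table of significant genes annotates with the Gene Ontology process mitosis or cytokinesis and not with DNA replication. The rule found 74 genes of the 5480 that the table names, through 120 probe sets that carry 1 gene each. Of the 74 genes, 39 carried both terms, 33 carried cytokinesis alone and 2 (Ran and Sycp3) mitosis alone. Another 3 probe sets met the rule but carry several symbols, so they are given to no gene, and 2 genes (Cdc6 and Lig1) were left out because they also carry DNA replication. For 17 genes the table lists an older name (Cdk1 as Cdc2a, Ncaph as Brrn1), and the current mouse symbol is used here.

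Mitosis parts the copied chromosomes between the daughter cells, and cytokinesis then cuts the cell body apart. Cyclin-dependent kinase 1 with cyclin A or B drives entry, condensin compacts the chromosomes, cohesin holds the sister chromatids together, and the spindle checkpoint delays their parting until every kinetochore is attached. The anaphase-promoting complex (APC/C), a ubiquitin ligase, then marks securin and cyclin B for destruction. Hair cells and neurons of the adult mammalian cochlea do not divide, while precursors of blood cells do, and many genes of the list have other roles in cells that no longer divide, among them transcription, cell polarity and microtubule transport.

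The samples were cochlear total RNA of male mice of CBA, an inbred strain used in hearing research, at 6 months of age. The 5 samples called GeO2 came from mice given germanium dioxide at 0.15% in the diet for 4 months, and the 5 samples called control from mice on normal chow, and no other difference between the groups is labelled. Each sample was hybridised to 1 Affymetrix array, with median signals from 447 to 508 units between arrays and a trimmed mean of 1496 on each, and precision is limited by the number of arrays. Whether a sample is 1 animal or a pool is not labelled, so p-values measure only how these samples vary, which may be a technical spread. In RNA from a whole organ, fewer cells of a type and less RNA per cell cannot be told apart. Of 14 listed markers of the sensory and supporting epithelium the table names 3 (Otor, Otog and Gjb6), whose summed signal was 53679 to 68847 units in the controls and 55628 to 75444 in GeO2. Otor was lower (−0.64 ± 0.15, adjusted p = 0.0136), Otog higher (0.73 ± 0.23, adjusted p = 0.0438, a call lost in 7 of the 10 fits that each left out 1 sample) and Gjb6 not called (0.20 ± 0.08, adjusted p = 0.116). All 5 listed markers of strial marginal cells were measured, and all 5 were lower in GeO2. The call of Esrrb (−0.67 ± 0.21, adjusted p = 0.0483) was lost in 8 of those 10 fits and that of Slc12a2 in 1. The markers were chosen with earlier results of these data known, and the authors' table was selected on this same contrast, so nothing is read from 5 of 5. Of 6 listed Schwann cell markers 3 were measured, 1 lower, 1 higher and 1 not called. Of 7 listed markers of neurons 1 was measured and was not called.

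The genes moved both ways. Of the 70 genes tested, 32 were lower in GeO2 and 22 higher (limma, p adjusted by Benjamini-Hochberg under 0.05), and 16 passed in neither direction. The largest falls belonged to the engine of mitosis: Ube2c, the ubiquitin-conjugating enzyme of the APC/C, cyclin B2, sororin (Cdca5), Cdk1 and cyclin A2 were each lower by more than 4-fold. The rises were smaller and included the cohesin subunits Stag2 and Rad21, the phosphatase Cdc14a, the polarity proteins Pard6b and Pard6g and the scaffold Nedd9, with 3 of the 22 reaching 2-fold. The median difference was −1.28 over the genes called lower and 0.54 over those called higher, as GeO2 minus control on the scale of log2(signal + 16), which is used for every difference below and understates the change of dim genes.

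Over all 27022 probe sets tested, 7.81% were called lower and 8.5% higher, and over the 5118 tested genes that the authors' table names, 29.7% were lower and 29.6% higher. Among the genes described here the shares were 45.7% lower and 31.4% higher. The median difference was −0.42 over these 70 genes, −0.02 over all probe sets tested and −0.23 over all named genes of the table. Every probe set of the table has a deposited p under 0.05 for this same contrast, so the table fixed in part how many members would be called, and nothing is read from these shares. In 23 genes the fall was at least 2-fold, against 5.45% of the named genes of the table. Among the tested genes, every GeO2 sample lay below every control in 17 (5.62% of all probe sets) and above every control in another 17 (6.55%). The table's selection on this contrast bears on these counts too, and nothing is read from them. All of these 34 genes were called except Cdk4. Each gene is given by its brightest probe set under the rule, and 4 genes (Bub1b, Cdc25c, Cdk6 and Ccnc) were too dim to be tested.

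**Figure D1:**
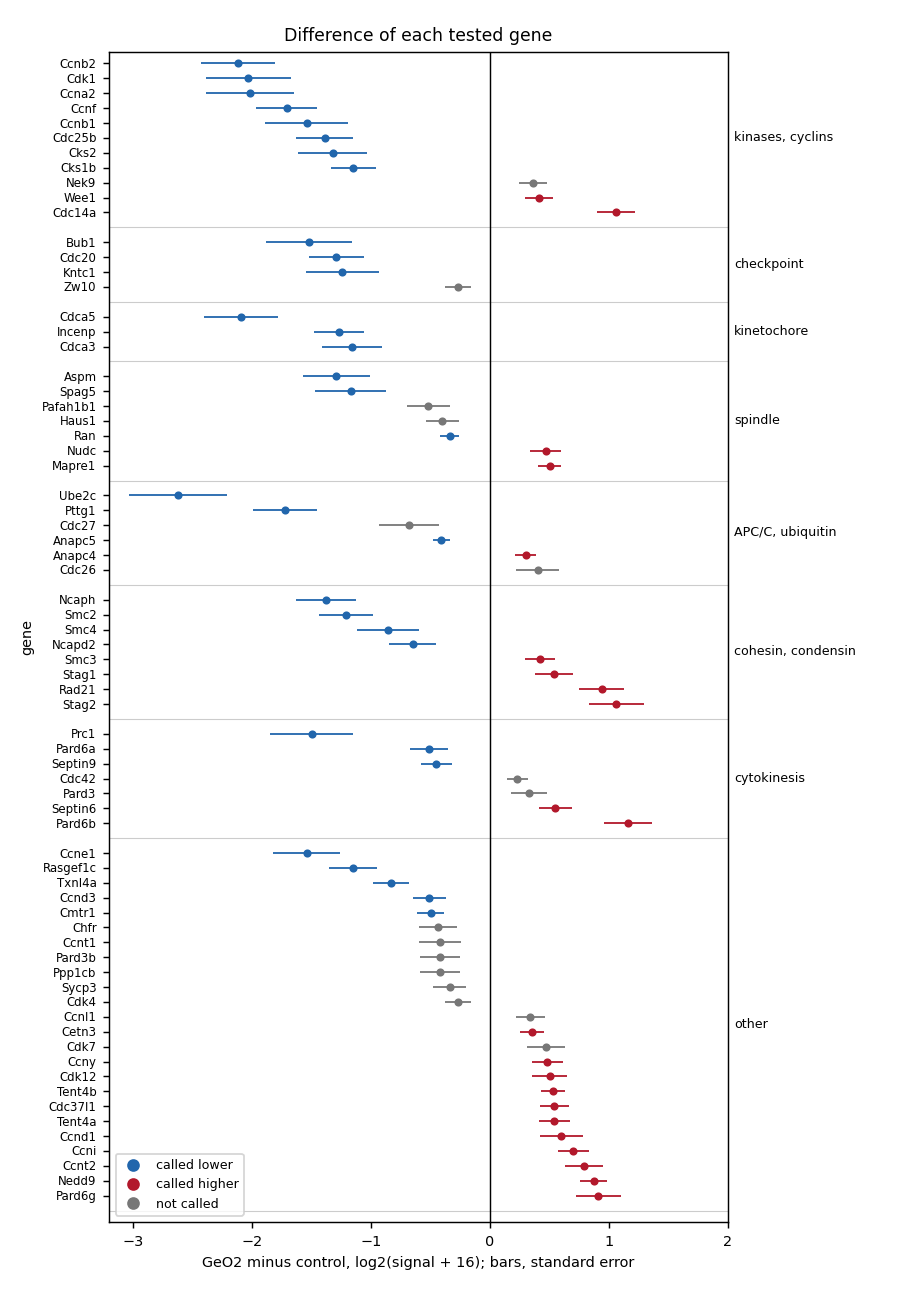
Difference between GeO2 and control (GeO2 minus control, log2(signal + 16), x axis) of each of the 70 tested genes, grouped by role; points are differences of group means over 5 samples each, bars are standard errors, and colours mark genes called lower (32), higher (22) or neither (16). The differences run from −2.62 for Ube2c to 1.16 for Pard6b.

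Among the kinases, cyclins and phosphatases that drive entry into and exit from mitosis, 8 of 11 tested genes were lower, 2 were higher and 1 was neither. Ccnb2, cyclin B2, a partner of Cdk1, read 2619.6, 2678, 1085, 2398 and 2418 units in control replicates 1 to 5 and 560.5, 951, 299.6, 411 and 372 units in GeO2 replicates 1 to 5, the order in which all sample values are listed. Every GeO2 sample lay below every control, with control replicate 3 well under the other controls. The difference was −2.12 ± 0.31 (SE), which is 4.36-fold lower, with an adjusted p of 0.00149. Cdk1, the kinase itself, read 3217, 3960.5, 1553, 4414 and 3515 units in the controls and 1231, 1405, 544, 731 and 362 units in GeO2. The groups did not overlap, and the highest GeO2 sample (replicate 2) came close to control replicate 3. Cdk1 was 4.08-fold lower (−2.03 ± 0.36, adjusted p = 0.00336). Ccna2, cyclin A2, which acts in S phase and at the entry into mitosis, read 3848, 6098, 2144, 5498 and 6091 units in the controls and 1187, 2609, 563, 941 and 864 units in GeO2. Here GeO2 replicate 2 lay above control replicate 3, so the groups overlapped in 1 of 25 pairs of samples, and the difference was −2.02 ± 0.37 (adjusted p = 0.00386). Ccnf, cyclin F, the substrate receptor of a ubiquitin ligase, read 1050.4, 946, 561, 1213 and 1144 units in the controls and 328, 483, 181, 242 and 246 units in GeO2. The groups were apart, with a difference of −1.71 ± 0.26 (adjusted p = 0.00205).

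The other 4 falls of this group were Ccnb1, cyclin B1 (−1.54 ± 0.35, adjusted p = 0.0109), Cdc25b, a phosphatase that activates Cdk1 (−1.39 ± 0.24, adjusted p = 0.00323), and the small Cdk-binding proteins Cks2 (−1.32 ± 0.29, adjusted p = 0.00965) and Cks1b (−1.15 ± 0.19, adjusted p = 0.00249). Cdc25c, a related phosphatase, was too dim to be tested and differed by −1.66, with an adjusted p of 0.0643 when no probe set was left out.

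The genes called higher in the same group included a brake and an antagonist of Cdk1. Cdc14a is a phosphatase that counters Cdk1 in yeast and is needed for hearing in mouse and human. It read 3023, 2452, 2946, 3603 and 3148 units in the controls and 9519, 5684, 6136, 5065 and 5795 units in GeO2. All GeO2 samples were above all controls, replicate 1 by the most, and the difference was 1.06 ± 0.16 (2.08-fold, adjusted p = 0.00206). Wee1, the kinase that holds Cdk1 inactive, read 2109.7, 2783, 2096, 2037 and 2517 units in the controls and 3153, 2793, 3223, 2800.5 and 3263 units in GeO2. The groups were apart by a narrow margin, GeO2 replicate 2 standing just above control replicate 2. Wee1 was 1.32-fold higher (0.41 ± 0.12, adjusted p = 0.0374), a call lost without GeO2 replicate 1, 3, 4 or 5 or control replicate 1, 3 or 4 (adjusted p up to 0.0931). Nek9, a kinase that acts at the centrosome, differed by 0.36 ± 0.12 (adjusted p = 0.0573) and was not called.

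Of the spindle checkpoint genes, 3 of 4 tested were lower and none was higher. Bub1, a checkpoint kinase of the kinetochore, read 503, 797, 369.9, 816 and 820.4 units in the controls and 181, 546, 198, 101 and 197 units in GeO2. GeO2 replicate 2 lay inside the control range and the other 4 lay below it, and the difference was −1.52 ± 0.36 (adjusted p = 0.0145). Cdc20, the APC/C activator on which the checkpoint acts, read 4776, 4489, 3008, 5631 and 4697 units in the controls and 2534, 2724, 1629, 1229 and 1358 units in GeO2. No sample of one group reached the other, and Cdc20 was 2.45-fold lower (−1.29 ± 0.23, adjusted p = 0.00362). Kntc1, which with Zw10 forms the complex that brings dynein to kinetochores, read 909.7, 1111, 524, 812 and 929.6 units in the controls and 595, 612, 218, 226 and 263 units in GeO2. GeO2 replicates 1 and 2 lay above control replicate 3, the other 3 lay far below all controls, and the difference was −1.24 ± 0.31 (adjusted p = 0.0181). Its partner Zw10 differed by −0.27 ± 0.11 (adjusted p = 0.0991) and was not called. Bub1b, the checkpoint pseudokinase BubR1, read 664, 792, 478, 864 and 714 units in the controls and 31.7, 537, 26.5, 57.5 and 207 units in GeO2. It was dim in GeO2 replicates 1, 3 and 4, was not tested because of its low mean, and differed by −2.64 with an adjusted p of 0.0177 when no probe set was left out.

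All 3 genes placed in the role list of kinetochore, centromere and chromosomal passenger genes were lower. For Cdca5 and Cdca3 the place is one of the list, and their roles given below are others. Cdca5, sororin, which protects cohesin on chromatids until anaphase, read 3066, 3793, 1883, 3799.6 and 3476 units in the controls and 933, 1544, 535, 396 and 627 units in GeO2. Control and GeO2 samples were fully apart, and Cdca5 was 4.24-fold lower (−2.09 ± 0.31, adjusted p = 0.00177). Incenp, the scaffold that anchors Aurora B in the chromosomal passenger complex, read 6069, 5745, 4470.3, 6679 and 5965 units in the controls and 2477, 4115, 1685, 1959.7 and 2199.7 units in GeO2. Again the groups were apart, GeO2 replicate 2 being the nearest to the controls, and the difference was −1.27 ± 0.21 (adjusted p = 0.00243). At its other probe sets Incenp differed by −0.54 ± 0.22 (adjusted p = 0.112) and −0.65 ± 0.23 (adjusted p = 0.0751), neither of them called. Cdca3, a substrate adaptor that promotes entry into mitosis by removing Wee1, read 713, 1129.6, 547, 917 and 744 units in the controls and 404, 555, 296, 214 and 329.5 units in GeO2. GeO2 replicate 2 exceeded control replicate 3 by a few units, the only overlap among the 25 pairs, and the difference was −1.16 ± 0.25 (adjusted p = 0.00862).

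Of the 6 genes around the APC/C, 3 were lower, 1 higher and 2 neither, and the large falls were those of its conjugating enzyme and a substrate. Ube2c, the conjugating enzyme that starts the ubiquitin chains, had the largest difference of all genes tested here. It read 3104, 4027, 1232, 4148 and 3489 units in the controls and 654, 1204, 345, 306 and 258 units in GeO2. Every GeO2 sample lay below every control, although GeO2 replicate 2 came close to control replicate 3, and Ube2c was 6.16-fold lower (−2.62 ± 0.41, adjusted p = 0.0022). Pttg1, securin, the inhibitor of the separating protease, read 25017, 26814, 13939, 26602 and 24582 units in the controls and 8626, 12454, 4338, 4583 and 7229 units in GeO2. The groups did not overlap, control replicate 3 again the lowest control, and the difference was −1.72 ± 0.27 (adjusted p = 0.0022). Another Pttg1 probe set was called lower, by −1.54, and the third was not called (−1.37 ± 0.49, adjusted p = 0.0766).

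Among the 4 APC/C subunits, a group formed after the values were seen, 1 was lower, 1 higher and 2 neither. Anapc5, a scaffold subunit, read 26188, 29756, 26797, 25995 and 26349 units in the controls and 20085, 19044, 20815, 21982 and 19479.8 units in GeO2. The GeO2 samples were all below the controls by a similar amount, a difference of −0.41 ± 0.07 (adjusted p = 0.00324). Of its other 4 probe sets, 3 were also called lower, by −0.43, −0.39 and −0.36. The fifth, the dimmest of them, differed the other way by 0.29 ± 0.12 (adjusted p = 0.11). Anapc4, another scaffold subunit, read 7721, 7975, 8780.0, 8571 and 8963 units in the controls and 9614, 10929.9, 10456, 10702 and 9973 units in GeO2. All GeO2 samples were above all controls, and the difference was 0.30 ± 0.09 (adjusted p = 0.0302). This call was lost without GeO2 replicate 2, 4 or 5 or control replicate 1 or 2 (adjusted p up to 0.0843). The dimmer Anapc4 probe set differed by 0.37 ± 0.15 (adjusted p = 0.117) and was not called. Cdc27 differed by −0.68 ± 0.25 (adjusted p = 0.0827) and Cdc26 by 0.40 ± 0.18 (adjusted p = 0.144), both subunits of the arm of the complex that binds activators, and neither was called.

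**Figure D2:**
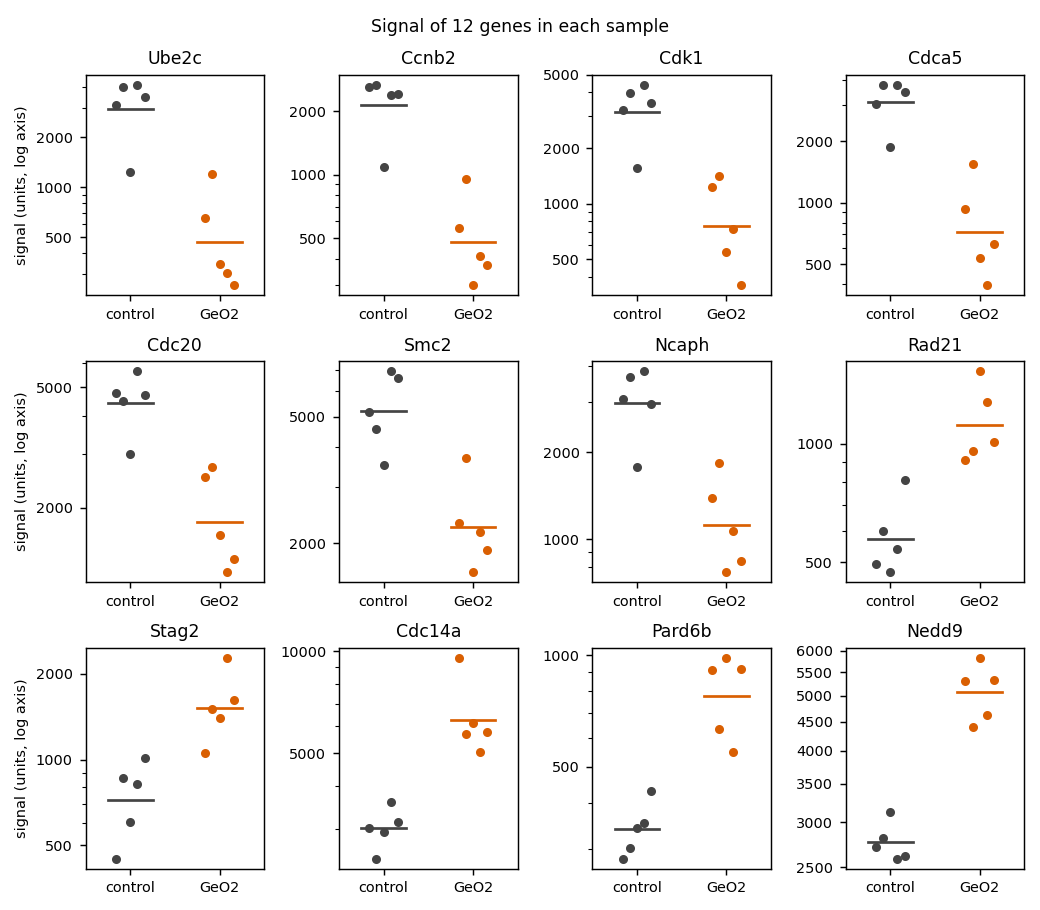
Signal (y axis, units, log scale) of 12 genes in each of the 5 control and 5 GeO2 samples; points are samples in replicate order from left to right within a group, and lines are means of log2(signal + 16) turned back to units. Ube2c, Ccnb2, Cdk1, Cdca5 and Cdc20 sit below the controls in every GeO2 sample, Smc2 and Ncaph overlap in 1 pair of samples, and Rad21, Stag2, Cdc14a, Pard6b and Nedd9 sit above.

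Promoters of genes used late in the cell cycle often hold a cell cycle genes homology region (CHR), bound by the DREAM and MuvB complexes, and CCAAT boxes, bound by NF-Y. The windows searched were those RefSeq gives on GRCm38.p6, from 250 bases before to 50 after a transcription start, for TTTGAA or TTTAAA as CHR and CCAAT as the box, on both strands. Windows were found for 61 of the 74 genes, 72 in all because some genes have several starts. The stretches below run from 150 bases before to 20 after the start, 5′ to 3′ on the strand of the gene, with the motif letters in capitals. The first 4 belong to genes that fell, and the last, Smc3, to a cohesin gene that was higher. These genes were picked by hand and do not stand for all genes that fell or rose. Ube2c lies at chr2:164769779-164769948 (plus strand), Ccnb2 at chr9:70421535-70421704 (minus strand), Cdk1 at chr10:69352893-69353062 (minus strand), Cdc20 at chr4:118437324-118437493 (minus strand) and Smc3 at chr19:53600246-53600415 (plus strand).
Ube2c: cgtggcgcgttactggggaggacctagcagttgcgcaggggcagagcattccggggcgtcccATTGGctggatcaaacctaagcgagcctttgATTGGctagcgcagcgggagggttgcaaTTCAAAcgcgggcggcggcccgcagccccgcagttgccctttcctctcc
Ccnb2: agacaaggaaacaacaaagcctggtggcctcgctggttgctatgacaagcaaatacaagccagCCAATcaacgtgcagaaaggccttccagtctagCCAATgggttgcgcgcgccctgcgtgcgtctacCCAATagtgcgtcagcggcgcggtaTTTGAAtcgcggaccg
Cdk1: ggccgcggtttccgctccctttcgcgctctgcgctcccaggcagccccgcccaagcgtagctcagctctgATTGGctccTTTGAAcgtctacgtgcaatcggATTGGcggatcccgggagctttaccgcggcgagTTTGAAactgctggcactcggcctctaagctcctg
Cdc20: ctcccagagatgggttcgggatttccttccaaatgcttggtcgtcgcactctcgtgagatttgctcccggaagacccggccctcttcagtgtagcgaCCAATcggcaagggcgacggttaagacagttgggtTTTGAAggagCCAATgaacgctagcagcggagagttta
Smc3: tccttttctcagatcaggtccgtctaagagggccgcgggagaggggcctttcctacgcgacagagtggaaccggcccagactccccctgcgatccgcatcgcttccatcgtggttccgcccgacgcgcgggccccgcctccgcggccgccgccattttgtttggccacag

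The Ccnb2 stretch holds 3 CCAAT boxes that begin 87, 54 and 21 bases before the start, so that each pair of neighbours is 33 bases apart, followed by TTTGAA 5 bases after the start. In the Cdk1 stretch TTTGAA begins at −71 and −15 and reversed CCAAT boxes at −80 and −48. Cdc20 has TTTGAA at −18 between CCAAT boxes at −53 and −8, and Ube2c has the reversed TTTGAA at −29. The Smc3 stretch holds neither motif. Other genes called higher do hold matches in their windows, Cetn3, Pard6b and Ccnt2 of CCAAT and Cdc37l1 and Ccni of the CHR. Among the genes called lower, Cdca5 had no CCAAT match, and Bub1, Cdc25b and Cks2 had no CHR match. Both motifs stood in 14 of the 23 windows of genes lower by at least 2-fold (60.9%) and in 10.7% of all 32851 windows of the table. Neither the 18 windows of genes called higher nor the 16 of genes not called held both, which is 0 of 18 and 0 of 16. A CHR alone or with a box was found in 69.6% of the windows of genes lower by at least 2-fold, 22.2% of those of genes called higher and 27.6% of all windows, and a CCAAT box in 82.6%, 44.4% and 37.4%. The genes called higher were not cut at 2-fold. Over all 35 windows of genes called lower, both motifs stood in 15 (42.9%), a CHR in 48.6% and a CCAAT box in 68.6%. These are matches of letters and not sites shown to be bound, windows of the same gene may overlap, and 13 genes, among them Ccna2, Smc4, Rad21 and Stag2, had no window.

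**Figure D3:**
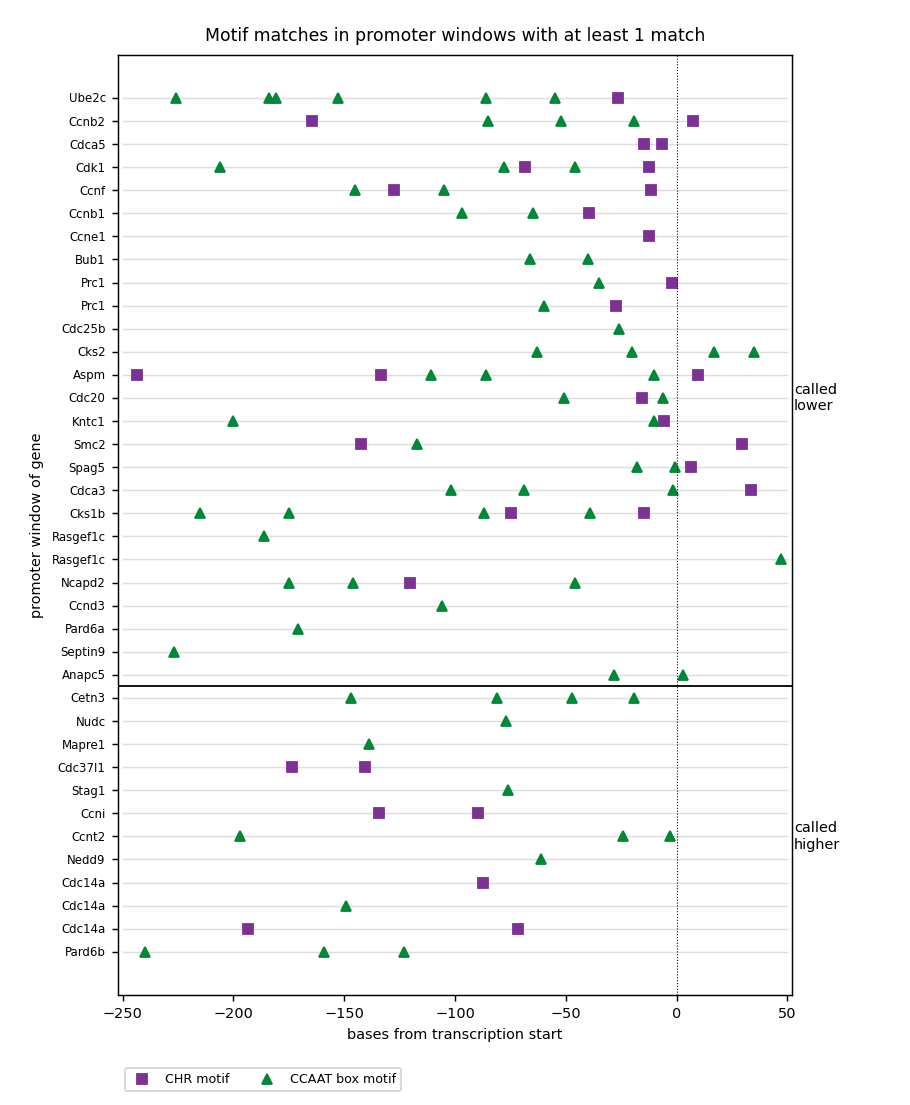
Position of CHR (squares) and CCAAT (triangles) matches in bases from the transcription start (x axis) in the promoter windows of genes called lower, ordered by difference with the largest fall on top, and of genes called higher; windows with no match are not drawn. Windows with both motifs stand in the upper block only, 15 of its 35 windows against 0 of 18 for the genes called higher.

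The genes described here from the ring-shaped complexes that shape and hold chromosomes moved in opposite directions. All 4 of condensin, which compacts chromosomes, were lower (median −1.03). All 4 of cohesin, which holds sister chromatids and also forms chromatin loops in cells that do not divide, were higher (median 0.74). This division into complexes was made after the values were seen. Cdca5, which protects cohesin and is described above, was lower. Among the genes of the same role list without either term, Ncapg was lower, Nipbl and Smc5 were higher, and Ncapd3, Pds5a and Esco1 were not called. Ncaph, the kleisin of condensin I, read 3069, 3657, 1779.9, 3816 and 2949 units in the controls and 1394, 1839, 770.4, 1067 and 842 units in GeO2. The groups overlapped in 1 of 25 pairs, GeO2 replicate 2 above control replicate 3, with a difference of −1.38 ± 0.25 (adjusted p = 0.00386). Smc2, one of the ATPase arms of condensin, read 5149.9, 4564, 3529, 6932 and 6629.7 units in the controls and 2310.4, 3694, 1624, 2167 and 1902 units in GeO2. The same pair of samples overlapped, and Smc2 was 2.31-fold lower (−1.21 ± 0.23, adjusted p = 0.00438). The other arm, Smc4, differed by −0.86 ± 0.26 (adjusted p = 0.0423). GeO2 replicate 2 lay inside the control range, replicate 1 below it and the others far below. Another Smc4 probe set was called lower, by −0.94, and those at −0.57 and −0.68 were not called (adjusted p = 0.0698 and 0.064). The call at the brightest probe set was lost without GeO2 replicate 3, 4 or 5 or control replicate 1, 2, 3, 4 or 5 (adjusted p up to 0.103). Ncapd2, a further condensin I subunit, differed by −0.65 ± 0.20 (adjusted p = 0.0411), a call lost without GeO2 replicate 3, 4 or 5 or control replicate 1, 2, 4 or 5 (adjusted p up to 0.101). Both of these calls were also lost when no probe set was left out, with adjusted p-values up to 0.0661 over the alternatives that ended them.

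Among the cohesin genes, Stag2, a subunit that helps dock cohesin on chromatin, read 449, 860.1, 602, 821 and 1013 units in the controls and 1054, 1507, 1395, 2264 and 1618 units in GeO2. All GeO2 samples were above all controls, and Stag2 was 2.09-fold higher (1.06 ± 0.23, adjusted p = 0.00982). Rad21, the kleisin whose cutting frees the chromatids, read 496, 598, 472, 540.3 and 809 units in the controls and 910.2, 957, 1528, 1279 and 1014 units in GeO2. Again the groups did not overlap, control replicate 5 being the nearest, and the difference was 0.94 ± 0.19 (adjusted p = 0.00569). Stag1, the alternative to Stag2, read 424, 571, 432, 526 and 556 units in the controls and 563, 846, 741, 845 and 698 units in GeO2. GeO2 replicate 1 lay within the control range and the other 4 above all controls. The difference of 0.54 ± 0.16 (adjusted p = 0.0369) lost its call without GeO2 replicate 2, 3, 4 or 5 or control replicate 1, 3 or 4 (adjusted p up to 0.0926). At its other probe set Stag1 differed by 0.58 ± 0.22 (adjusted p = 0.0986) and was not called. Smc3, an ATPase arm of cohesin, read 5072, 6970.4, 5252, 5517 and 6737 units in the controls and 6437, 7953, 7347, 9435 and 8300.2 units in GeO2. GeO2 replicate 1 lay below 2 of the controls, the other 4 lay above all controls, and the difference of 0.42 ± 0.13 (adjusted p = 0.0431) lost its call without GeO2 replicate 2, 3, 4 or 5 or control replicate 1, 3 or 4 (adjusted p up to 0.11). Under quantile normalization Smc3 was not called either, nor were Smc3 and Stag1 when no probe set was left out, with adjusted p-values up to 0.0727 over the alternatives for both genes.

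Of the 7 spindle and microtubule genes, 3 were lower and 2 higher. Aspm, which gathers microtubule minus ends at the spindle poles, read 1466, 1677, 771, 2179 and 1646 units in the controls and 703, 1016, 417, 499 and 489 units in GeO2. One pair of samples overlapped, GeO2 replicate 2 above control replicate 3, and the difference was −1.29 ± 0.28 (adjusted p = 0.00925). Spag5, astrin, which steadies attachment of microtubules to kinetochores, read 911, 1188, 901, 1067 and 961 units in the controls and 573, 956, 286, 233 and 426 units in GeO2. GeO2 replicate 2 stood among the controls while the other 4 were below them, with a difference of −1.17 ± 0.30 (adjusted p = 0.0205). Ran, the GTPase of nuclear transport that also guides spindle assembly, was also lower, with a difference of −0.34 ± 0.08 (adjusted p = 0.0169) with no overlap between the groups. Of the 4 tested Ran probe sets, 3 were called lower. Mapre1, the protein EB1 that rides growing microtubule ends, read 5411, 4993, 5011, 6008 and 6198 units in the controls and 8334, 7665, 7955, 7420.0 and 7600.4 units in GeO2. Every GeO2 sample was above every control, a difference of 0.50 ± 0.10 (adjusted p = 0.00509). Of the 3 tested Mapre1 probe sets, 2 were called higher. Nudc, a chaperone of the dynein machinery, read 2892, 2481, 2965, 2995 and 2645 units in the controls and 4780.3, 4442, 3273, 3618 and 3437 units in GeO2. The groups were apart, GeO2 replicates 1 and 2 standing highest, with a difference of 0.47 ± 0.13 (adjusted p = 0.0261) that lost its call without GeO2 replicate 2 or control replicate 1, 2 or 5 (adjusted p up to 0.0618). Pafah1b1, the dynein regulator Lis1, and Haus1, a subunit of augmin, differed by −0.52 ± 0.18 (adjusted p = 0.0661) and −0.40 ± 0.14 (adjusted p = 0.0688) and were not called.

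Of the 7 cytokinesis genes, 3 were lower and 2 higher. Prc1, which bundles the microtubules of the central spindle where the cell is cut, read 2939.6, 3099, 1592, 4279.6 and 3572 units in the controls and 1983, 1749.9, 577, 771 and 739.8 units in GeO2. GeO2 replicates 1 and 2 lay above control replicate 3 and the other 3 far below all controls, and Prc1 was 2.83-fold lower (−1.50 ± 0.35, adjusted p = 0.012). Pard6a, an adaptor of the polarity complex with atypical protein kinase C, read 1538, 1814, 1846, 1417 and 1858 units in the controls and 906, 1350.4, 1561, 1023 and 1181 units in GeO2. GeO2 replicate 3 stood inside the control range, and the difference of −0.51 ± 0.16 (adjusted p = 0.0463) lost its call without GeO2 replicate 1, 2, 4 or 5 or control replicate 1, 2, 3 or 5 (adjusted p up to 0.103). Septin9, a filament-forming GTPase, differed by −0.45 ± 0.13 (adjusted p = 0.0331), a call lost without GeO2 replicate 2, 4 or 5 or control replicate 1, 3, 4 or 5 (adjusted p up to 0.0796). Septin6, of the same family, read 504, 499, 556, 473 and 571 units in the controls and 709.6, 688, 898, 897 and 672 units in GeO2. All GeO2 samples were above all controls, and the difference of 0.55 ± 0.14 (adjusted p = 0.0215) lost its call without GeO2 replicate 4 or control replicate 1 (adjusted p up to 0.0548). Cdc42, the GTPase that steers polarity and actin, differed by 0.23 ± 0.09 (adjusted p = 0.0911) at its brighter probe set, which was not called, and by 0.40 ± 0.11 (adjusted p = 0.0296) at the other, which was.

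The paralogues of the Par6 family did not move together. Pard6b read 283, 302, 342, 354 and 432 units in the controls and 915, 632, 982, 549 and 919.6 units in GeO2. All GeO2 samples were above all controls, and at 2.24-fold higher (1.16 ± 0.20, adjusted p = 0.00276) it had the largest rise among the genes tested here. Pard6g read 290.2, 261, 220.2, 193 and 216 units in the controls and 372, 467, 558, 530.2 and 374 units in GeO2. The groups were apart here too, with a difference of 0.91 ± 0.19 (adjusted p = 0.00738), while Pard6a, described above, was called lower. The Par3 scaffolds Pard3 (0.33 ± 0.15, adjusted p = 0.148) and Pard3b (−0.42 ± 0.17, adjusted p = 0.108) were not called.

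The other members are genes with a role in the cell cycle outside mitosis, or with annotated links to division and other main roles. Ccne1, cyclin E1, which drives entry into S phase, read 3705, 4452, 2555, 5134 and 4780.0 units in the controls and 1928, 2293, 799, 1368 and 982 units in GeO2. Each GeO2 sample lay under each control, and Ccne1 was 2.91-fold lower (−1.54 ± 0.28, adjusted p = 0.00352). Ccnd1, cyclin D1, which acts earlier in G1, read 1479.6, 1135, 1724, 1506 and 1045 units in the controls and 1574, 2341, 2594, 1645 and 2391 units in GeO2. GeO2 replicates 1 and 4 lay within the control range and the others above it, and the difference of 0.60 ± 0.18 (adjusted p = 0.0404) lost its call without GeO2 replicate 2, 3 or 5 or control replicate 1, 2, 4 or 5 (adjusted p up to 0.0978). Ccnd3, cyclin D3, went the other way at −0.51 ± 0.14 (adjusted p = 0.0291), a call lost without GeO2 replicate 3, 4 or 5 or control replicate 1, 2, 4 or 5 (adjusted p up to 0.0763). A probe set that the table lists as 9230106B05Rik, a synonym of Ccnd3 in RefSeq, and annotates with neither term was higher by 0.85 ± 0.15 (adjusted p = 0.00367), so the Ccnd3 probe sets disagree. Their kinase partners Cdk4 (−0.27 ± 0.11, adjusted p = 0.1) and Cdk6 (−0.65, too dim to be tested) were not called, although every GeO2 sample lay below every control in both.

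Of the 5 tested cyclins and kinases of RNA polymerase II transcription, 2 were called higher and 3 were not called. This grouping was made after the values were seen. Over all tested genes that the authors' table names, 29.6% were higher and 29.7% lower, and nothing is read from the count. Ccnt2, cyclin T2 of the elongation factor P-TEFb, read 1765, 1425, 1626, 2349 and 2271 units in the controls and 2501, 3060.0, 3416, 3672 and 3589.8 units in GeO2. The groups did not overlap, and the difference was 0.79 ± 0.16 (adjusted p = 0.00689). Its paralogue Ccnt1 differed by −0.42 ± 0.18 (adjusted p = 0.13). Cdk12, a kinase of the polymerase tail, read 871, 1035, 1118, 1338 and 918 units in the controls and 1376, 1261, 1920.5, 1452 and 1459 units in GeO2 at its brightest probe set. One pair of samples overlapped, and the difference of 0.50 ± 0.15 (adjusted p = 0.0436) lost its call without GeO2 replicate 3, 4 or 5 or control replicate 1, 2, 3 or 5 (adjusted p up to 0.11). Another Cdk12 probe set was called higher by 0.46, and the third differed by −0.37 ± 0.14 (adjusted p = 0.0829), so the probe sets disagree in sign. Cdk7, the kinase of TFIIH (0.47 ± 0.16, adjusted p = 0.0575), and Ccnl1, cyclin L1, linked to splicing (0.34 ± 0.12, adjusted p = 0.0687), were not called, and Ccnc, cyclin C of Mediator, differed by 0.83 and was too dim to be tested.

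Further genes called higher included Nedd9, an adhesion scaffold that also activates Aurora A, which read 2710.2, 2819, 3119.6, 2588 and 2612 units in the controls and 5306, 4407, 5816, 4633 and 5320.2 units in GeO2. The groups were far apart, and the difference of 0.87 ± 0.11 had the lowest adjusted p of all genes described here (0.00078). Its other 2 probe sets were called higher as well, by 0.50 and 0.79. Ccni, the atypical cyclin I, read 12215, 19559.9, 15514, 13992 and 12764 units in the controls and 22926, 22604, 28935, 24469 and 20705 units in GeO2. No control reached the lowest GeO2 sample, and Ccni was 1.63-fold higher (0.70 ± 0.13, adjusted p = 0.00406). Another Ccni probe set was called higher, by 0.95, and the third was not called (0.34 ± 0.11, adjusted p = 0.0509). Tent4b, a noncanonical poly(A) polymerase, read 4912, 4702, 4554, 5155 and 5419 units in the controls and 7815, 6871, 6409.9, 7267 and 7485 units in GeO2. Its paralogue Tent4a read 1299.5, 1481, 1697, 1384 and 1679 units in the controls and 1801, 2190.5, 2289, 2198 and 2502 units in GeO2. Neither gene overlapped between groups, and the differences were 0.53 ± 0.10 (adjusted p = 0.00362) and 0.54 ± 0.13 (adjusted p = 0.0141).

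Cdc37l1, a co-chaperone of Hsp90, read 8284, 8278, 7894, 10236 and 8349.6 units in the controls and 11243, 10328, 15512, 13663 and 12121 units in GeO2. The lowest GeO2 sample (replicate 2) stood just above the highest control (replicate 4), and the difference was 0.54 ± 0.12 (adjusted p = 0.0103). Another Cdc37l1 probe set was called higher, by 1.25, and the third was not called (0.29 ± 0.12, adjusted p = 0.131). Cetn3, a centrin of the centriole, read 4901, 5229, 5457, 5746 and 4854 units in the controls and 7179.7, 6228, 7175, 6034 and 6759 units in GeO2. The groups were apart, and the difference of 0.35 ± 0.10 (adjusted p = 0.0279) lost its call without GeO2 replicate 5 or control replicate 1, 2 or 5 (adjusted p up to 0.0749). Ccny, cyclin Y, a membrane-bound cyclin of Wnt signalling, read 3039, 3081, 2549.5, 3801 and 3022 units in the controls and 4203, 3669.6, 4077, 4856 and 4705 units in GeO2 at its brightest probe set. One pair of samples overlapped, and the difference of 0.48 ± 0.13 (adjusted p = 0.0229) lost its call without GeO2 replicate 4 or 5 or control replicate 1 or 3 (adjusted p up to 0.0622). A second Ccny probe set was called lower by −0.43 ± 0.12 (adjusted p = 0.0274) and the third, too dim to be tested, differed by −1.11, so its probe sets disagree, and its place among the 22 genes called higher rests on the brightest.

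The remaining falls included Rasgef1c, of a family of Ras guanine nucleotide exchange factors, which read 771, 486, 1016, 726 and 569 units in the controls and 307, 365, 240.1, 317 and 299 units in GeO2. The groups did not overlap, and the difference was −1.15 ± 0.20 (adjusted p = 0.00345). Unlike the falls of the mitotic engine, its highest control was replicate 3. Txnl4a, a protein of the spliceosome, was lower with a difference of −0.83 ± 0.15 (adjusted p = 0.00323), and Cmtr1, a methyltransferase of the mRNA cap, with one of −0.50 ± 0.11 (adjusted p = 0.0112). The other Cmtr1 probe set was not called (−0.41 ± 0.15, adjusted p = 0.0796). Not called were Chfr, a ubiquitin ligase that delays entry into mitosis (−0.44 ± 0.16 at its brighter probe set, adjusted p = 0.0701), Ppp1cb, a catalytic subunit of protein phosphatase 1 (−0.42 ± 0.17, adjusted p = 0.118), and Sycp3, a protein of the meiotic synaptonemal complex (−0.34 ± 0.14, adjusted p = 0.103). The other Chfr probe set was called lower, with a difference of −0.76 ± 0.14 (adjusted p = 0.00364) and no overlap between the groups.

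**Figure D4:**
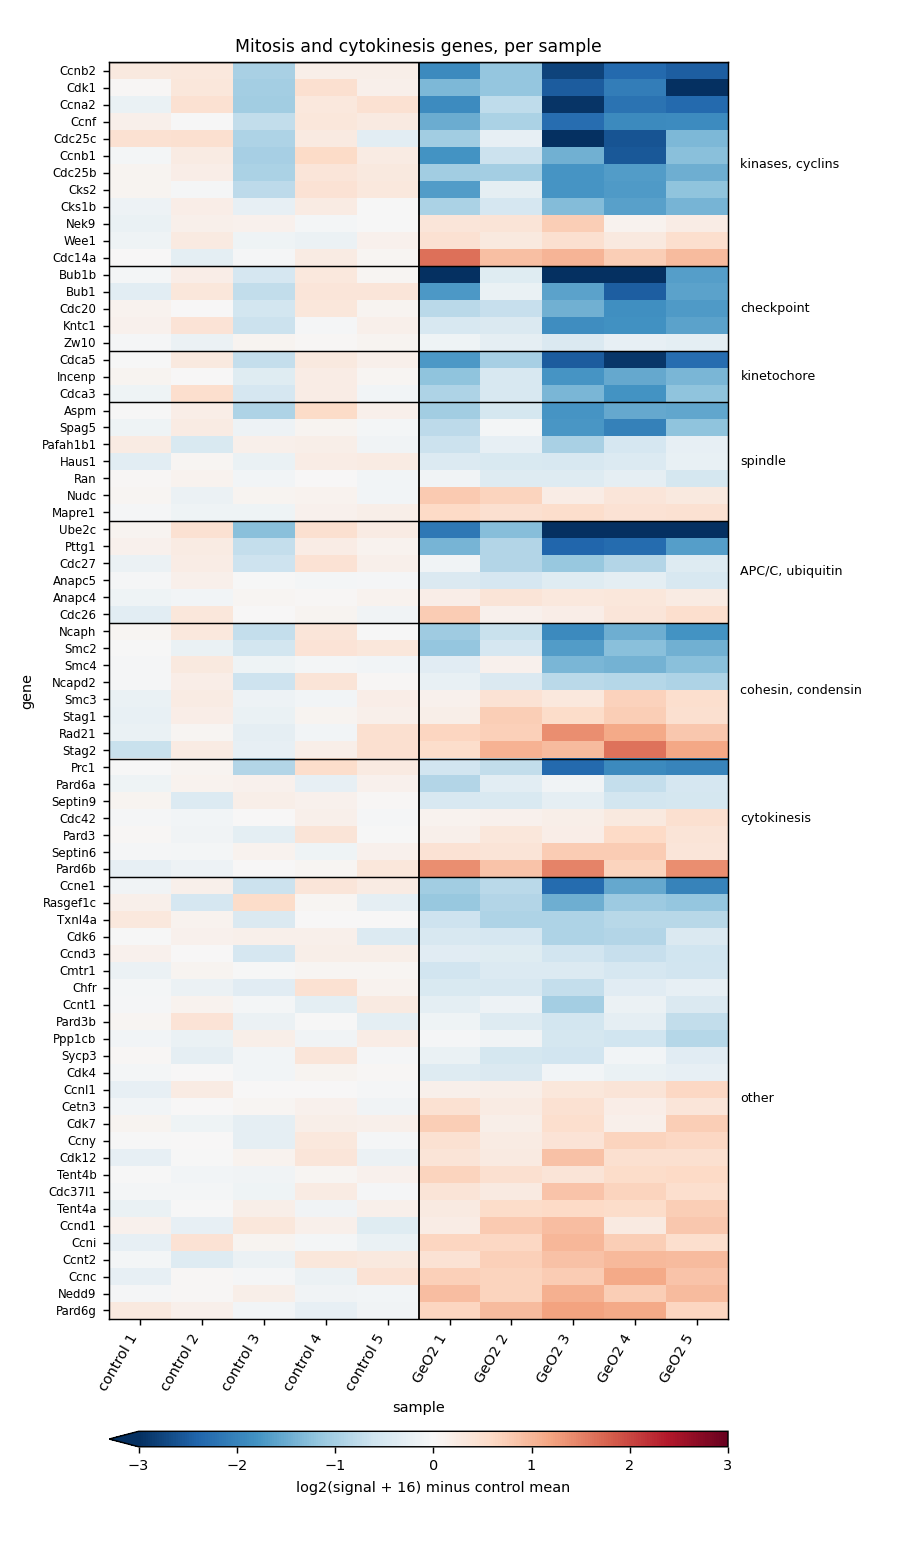
Level of each of the 74 genes (rows, grouped by role and ordered by difference) in each sample (columns), as log2(signal + 16) minus the mean of the 5 controls; blue is lower, red is higher, and values under −3 take the darkest blue. Across the genes with large falls, control replicate 3 is the bluest control and GeO2 replicate 2 the palest GeO2 sample in most rows (each in 22 of the 23 genes lower by at least 2-fold).

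The genes with large falls mostly shared their highest and lowest samples. Among the 23 genes lower by at least 2-fold, GeO2 replicate 2 was the highest GeO2 sample in 22 and control replicate 3 the lowest control in 22, and GeO2 replicate 3 was the lowest GeO2 sample in 14. Their median log2 value was 11.59, 11.84, 10.62, 11.90 and 11.78 in the controls and 10.23, 10.50, 9.13, 9.55 and 9.33 in GeO2. The genes called higher had no such sample: among the 22, no sample was the highest or the lowest of its group in more than 9. Leaving out 1 sample at a time kept 27 of the 32 lower calls and 12 of the 22 higher calls in every fit. The count called higher fell from 22 to 12 with control replicate 1 left out and to 14 with GeO2 replicate 5 left out, and the count called lower was 27 to 32 over the 10 fits. Under 10 other settings of the analysis, 14 of the 54 calls were lost at least once, those of Smc4, Ncapd2, Pard6a, Septin9, Ran and Ccnd3 among the falls and of Anapc4, Smc3, Stag1, Wee1, Cetn3, Ccny, Cdk12 and Ccnd1 among the rises, and 38 calls were kept in every fit of both kinds.

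Markers of red cell precursors had the same lowest control, lowest GeO2 sample and highest GeO2 sample. Of 29 listed, 23 were measured, 22 of them were lower and 1 (Hba-a1, −0.21 ± 0.09, adjusted p = 0.128) was not called, with a median difference of −2.48, and none of the 23 was at 0. Klf1, the erythroid transcription factor, differed by −3.01 ± 0.37 and Gata1, which acts beside it, by −2.48 ± 0.34. The mean log2 value of the 23 markers was 12.57, 12.61, 11.56, 12.76 and 12.80 in the controls and 10.76, 11.51, 9.24, 10.08 and 10.02 in GeO2, and their summed signal ran from 163916 to 292889 units in the controls and from 71295 to 148938 in GeO2. Control replicate 3 was thus the lowest control, GeO2 replicate 2 the highest GeO2 sample and GeO2 replicate 3 the lowest for both sets, while the order of the other controls differed between the sets. These markers too were chosen with earlier results known, and measured only where the table, selected on this contrast, names them. The part of red cell precursors in the falls described above was not tested. Of 16 listed markers of granulocyte precursors the table names 1 (Lcn2, higher), of 9 markers of macrophages 2 (Msr1 and Clec4n, both higher), and of 13 markers of B cell precursors 1 (Ebf1, lower).

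**Figure D5:**
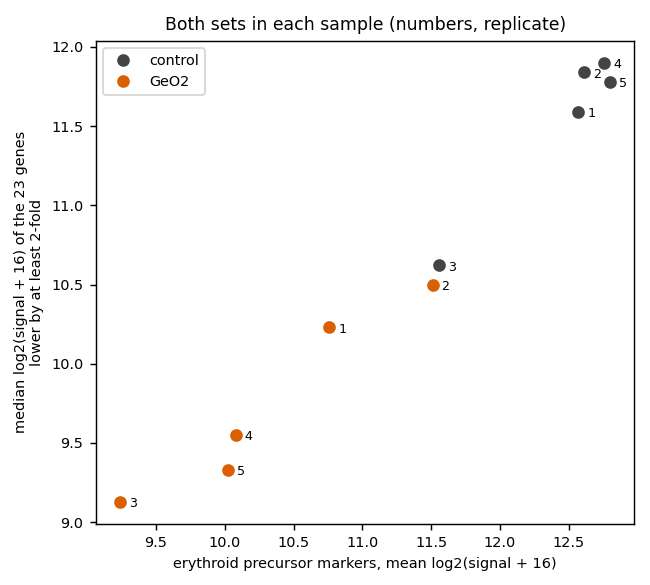
Median log2(signal + 16) of the 23 genes lower by at least 2-fold (y axis) against the mean log2(signal + 16) of 23 red cell precursor markers (x axis), 1 point per sample with its replicate number. Controls 1, 2, 4 and 5 lie at the upper right, control replicate 3 beside GeO2 replicate 2 in the middle, and GeO2 replicate 3 at the lower left.

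The table also names genes of the same machinery without either term. Of 95 such genes in the role lists used here, 55 were lower, 14 higher and 26 neither, with a median difference of −0.71. Over all tested genes that the table names, 29.7% were lower and 29.6% higher. Among the 6 such genes of the cohesin and condensin list, 1 was lower, 2 were higher and 3 were neither. The kinases Aurka (−1.94 ± 0.31), Aurkb (−1.33 ± 0.24) and Plk1 (−1.50 ± 0.33) fell, as did the shugoshin Sgo1 (−2.63 ± 0.66), which guards centromeric cohesin, the kinetochore proteins Cenpf (−2.17 ± 0.41) and Spc25 (−2.16 ± 0.47), the passenger proteins Birc5 (−1.96 ± 0.33) and Cdca8 (−1.91 ± 0.35), and the condensin subunit Ncapg (−1.33 ± 0.29). Nipbl, which loads cohesin onto chromatin, rose by 0.62 ± 0.10, and Smc5, of a related complex for DNA repair, by 0.78 ± 0.15. These genes were picked for naming after their values were seen. The 43 DNA replication genes tested held 32 that were lower and 3 that were higher, with a median of −0.74. A list of 32 proliferation markers held 18 measured genes outside the genes described here. All 18 were called lower (median −0.98), among them Mki67 (−1.32 ± 0.36) and Top2a (−1.76 ± 0.33). The Mki67 call was lost in 4 of the 10 fits that each left out 1 sample. Of the listed genes described above, Ccne1 and Ccnd3 were lower, Ccnd1 higher, Cdk4 not called and Cdk6 too dim to be tested. These sets share genes, such as Stmn1, and all of these genes come from the same table, chosen on the same contrast.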

How the data were processed

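Total RNA from 10 cochlea samples was turned into biotin-labelled cRNA and put on 1 Affymetrix array each, per the labels' protocols. The authors' deposited intensities, 1 linear signal per probe set and array, were made with GCOS 1.3, per the submitters' processing notes, and had been scaled to a common trimmed mean, as the values show. The authors' deposited table gives a p-value and a signed fold score for 7806 probe sets, and was used only for gene names and Gene Ontology terms; its p-values, all under 0.05, come from the contrast examined here.

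Here the intensities were turned into log2(signal + 16), the 40% of probe sets with the lowest mean were left out (18015 of 45037), and limma 3.58.1 in R 4.3.3 (lmFit, eBayes with a mean-variance trend) compared 5 GeO2 with 5 control arrays, two-sided, with Benjamini-Hochberg adjustment over the 27022 probe sets tested and a threshold of 0.05. The code was tested on simulated data. A gene is given by its brightest probe set that the table annotates with a term of the rule. Sample values are printed, in each role group, for the 4 called genes with the largest differences for every gene called higher and for Bub1b, added after its values were seen, and other genes by their difference. The members, role groups, marker lists and tests were chosen with earlier results of these data known. Promoter windows are from RefSeq on GRCm38.p6, whose table of genes also updated old names. Alternatives were an offset of 1 or 64 in place of 16, array weights, quantile normalization, a common median, a filter at 60% or none, no mean-variance trend, the mean of a gene's probe sets, a replicate block and leaving out each sample. Replicate numbers did not pair the samples (see the closing part on processing). Protein sequences were not used here. The values of the probe sets that carry several symbols are not reported here.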

Additional observations from a re-analysis of the deposited data

Results flagged for a closer look

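In 9 of the 148 groups of 5 samples examined (2 groups for each of 74 genes), 1 sample lay far from the other 4 by Dixon's criterion (gap over range above 0.71), where chance alone flags about 1 group in 20. All 9 were control groups. Control replicate 3 was the low sample in 5 of them, as log2(signal + 16): Ube2c at 10.29 against 11.61 to 12.02 in the other controls, Pttg1 at 13.77 against 14.59 to 14.71, Ccnb2 at 10.10 against 11.24 to 11.40, Cdc25b at 10.57 against 11.61 to 11.88 and Ccnd3 at 11.54 against 12.06 to 12.22. Control replicate 2 was high for Anapc5 (14.86 against 14.67 to 14.71) and Smc4 (13.21 against 12.79 to 12.89) and low for Septin9 (10.84 against 11.29 to 11.42). Control replicate 4 was high for Cdc37l1 (13.32 against 12.95 to 13.03). Without control replicate 3, Ube2c, Pttg1, Ccnb2, Cdc25b and Ccnd3 kept their calls.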

How the results depend on the processing

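Over the settings that changed 1 choice at a time, the counts of genes called lower and higher, the median difference and the count of genes whose groups do not overlap stayed within 1.5 times or within the spread of the values above, except when single samples were left out. Leaving out each sample in turn gave 27 to 32 genes lower, 12 to 22 higher, a median of −0.44 to −0.38, 34 to 47 genes without overlap and 2794 to 4854 probe sets called of all tested, against 32, 22, −0.42, 34 and 4408. Fewer samples lower the power of each such fit. Of the 54 called genes, 39 kept their call in all 10 of these fits. Called genes lost numbered 7 with no filter, 7 with the mean of a gene's probe sets, 5 without the mean-variance trend, 4 with each array shifted to 1 median, 4 with the replicate block (Anapc4, Wee1, Cetn3 and Ccnd1, against 3 gained), 1 with quantile normalization and 0 with offsets of 1 or 64, array weights or, among the 43 called genes left, a 60% filter. Ccnd3 changed sign with the mean of a gene's probe sets (0.17, adjusted p = 0.374), which takes in the probe set listed as 9230106B05Rik. Ccny moved to 0.02 and Cdk12 to 0.19 under the same setting, since their probe sets differ in sign. With the replicate number as a replicate block, 34 genes were lower, 19 higher and 4431 probe sets called in all; deviations of same-numbered samples correlated by −0.0506 to 0.172 over 5 pairs, not above 0.1 in every pair, so the numbers are not taken to pair the samples. Low signal kept 4 of the 74 genes out of the tests.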
